A study of Mus musculus with 8 samples.

Results

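The 39 genes described here lie on both sides of Piwil1 on mouse chromosome 5, 21 before it and 18 after it in gene order, the farthest 25 and 23 measured genes away. They were chosen by position from a list of neighbours, each read on the transcript cluster with the highest mean over all arrays, so mean levels are given as a description. They were 39 of 19938 genes with a cluster of a single gene symbol, and they were read on 39 of their 44 clusters among 35512 in all. All 39 were found, and no filter on low values was applied: 35 had a mean level at or above the median cluster and 4 lay below it (Tmem132d, Rimbp2, Mmp17 and Phkg1). Another 9 measured genes stand among them in gene order and are not members.

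Total RNA of purified round spermatids, which are haploid germ cells that have completed meiosis and not yet elongated, was measured on 8 Affymetrix arrays. The cells came from testes of adult C57BL/6 mice, digested with collagenase and fractionated on a gradient of bovine serum albumin, and spermatids of the matching fractions were pooled. The 4 Piwil1 genotypes had 2 arrays each. MIWI -/- carried no allele but the null one, MIWI -/KI combined the null with a knock-in allele, MIWI +/KI had that knock-in beside a wild-type allele, and MIWI +/- had the null beside a wild-type allele. Every genotype thus carried at least 1 targeted allele, and no array held wild-type alleles only. What the knock-in changes is not stated in the labels, and the series title names MIWI catalysis and LINE1 transposons. The embryonic stem cell strain of each targeted allele and the number of backcrosses are not stated in the labels. Both arrays of each genotype are titled biological replicates, with no word on whether each stands for 1 animal or several. The p-values therefore set differences between genotype means against the spread between replicate preparations, estimated over all 4 genotypes. The 2 arrays per genotype limit the precision of every value.

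As background, MIWI is a PIWI protein that binds piRNAs in male germ cells, and spermatogenesis of Miwi null mice stops at the round spermatid stage. An allele targeted in embryonic stem cells keeps a stretch of that strain's chromosome around it even after many backcrosses, because crossovers close to a selected site are rare. Genes in such a stretch can differ in sequence from those of the backcross strain, and a sequence difference can alter a gene's expression or how well an array probe binds its transcript. For this reason neighbours of a targeted gene are often read apart from the rest of the genome. No sequence of these mice was used here, and whether such a stretch was present was not tested.

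The members' start regions are shown for the 4 genes that passed the test in 3 comparisons, to give the reference sequence at which each of them begins. RefSeq's promoter table for assembly GRCm38.p6, which runs from 250 bases before a gene's start to 50 bases after it, held 29 of the 39 genes. The windows are chr5:125433999-125434298 on the minus strand for Dhx37, chr5:129008523-129008822 on the minus strand for the first of the 2 listed starts of Stx2, chr5:129895473-129895772 on the plus strand for Zbed5 and chr5:130003000-130003299 on the minus strand for Gusb. They are reference sequence and not that of the mice studied. Capitals mark GC boxes (GGGCGG or its complement CCGCCC) in Dhx37 and Stx2, CCAAT boxes (CCAAT or its complement ATTGG) in Zbed5 and a cyclic AMP response element (TGACGTCA) in Gusb.
Dhx37: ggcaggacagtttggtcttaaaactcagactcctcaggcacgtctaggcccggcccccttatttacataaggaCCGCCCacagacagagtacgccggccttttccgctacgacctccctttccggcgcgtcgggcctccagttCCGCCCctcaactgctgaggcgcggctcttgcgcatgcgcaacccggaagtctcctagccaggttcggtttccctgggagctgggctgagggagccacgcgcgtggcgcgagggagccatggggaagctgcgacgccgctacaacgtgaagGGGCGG
Stx2: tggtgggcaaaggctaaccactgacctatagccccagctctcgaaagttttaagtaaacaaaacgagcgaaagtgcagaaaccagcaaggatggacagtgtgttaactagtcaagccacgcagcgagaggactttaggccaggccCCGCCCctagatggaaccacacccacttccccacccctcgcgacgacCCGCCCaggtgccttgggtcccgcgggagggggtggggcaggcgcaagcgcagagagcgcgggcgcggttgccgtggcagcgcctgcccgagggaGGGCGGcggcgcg
Zbed5: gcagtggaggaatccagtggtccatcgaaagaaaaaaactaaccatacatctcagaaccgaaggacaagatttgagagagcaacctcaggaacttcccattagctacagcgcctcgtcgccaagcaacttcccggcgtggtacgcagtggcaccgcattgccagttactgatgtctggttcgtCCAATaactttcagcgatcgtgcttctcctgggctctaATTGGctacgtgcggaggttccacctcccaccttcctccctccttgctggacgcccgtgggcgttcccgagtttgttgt
Gusb: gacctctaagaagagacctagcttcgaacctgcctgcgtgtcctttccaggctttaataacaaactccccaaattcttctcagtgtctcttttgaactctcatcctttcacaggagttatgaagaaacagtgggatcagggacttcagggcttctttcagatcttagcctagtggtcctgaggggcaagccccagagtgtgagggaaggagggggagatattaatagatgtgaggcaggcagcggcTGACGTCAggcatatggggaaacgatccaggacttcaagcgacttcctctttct

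Of the 4 start regions shown, those of Dhx37 and Stx2 were alike in composition, with windows of 64.7% and 64.3% G and C, with 28 and 25 CpG dinucleotides and 3 GC boxes each. The second listed start of Stx2, which is not shown, differed. It had 50% G and C, 2 CpG, no GC box, 3 CCAAT boxes and 2 matches to TATAAA. Zbed5 had 54% G and C, 18 CpG and 2 CCAAT boxes, and Gusb had 49.7% and 6 CpG, with the response element beginning 4 bases before the start. Over members the median was 63.3% G and C and 22.5 CpG, against 52.7% and 7 CpG over all promoters of the table. Both strands were searched. Members were counted per gene, with a match in any listed start, whereas the share over the table was taken per start. The measures are therefore not alike. A GC box was found in 20 of 29 members (69%), against 35.7% of 32851 promoters. CCAAT stood in 9 members (31%, against 37.4%), TATAAA in 1 (3.45%, against 13.6%) and TGACGTCA in 1, Gusb (3.45%, against 1.79%). The shorter TGACG, which the longer element contains, stood in 10 members (34.5%, against 20.8%). A match is a run of letters and not a known binding site.

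Piwil1 itself was read first as a check of the labels. Its intensity was 196 and 151 in MIWI -/-, 672 and 696 in MIWI -/KI, 680 and 749 in MIWI +/KI and 389 and 371 in MIWI +/-, on the deposited linear scale. The MIWI -/- arrays lay below all others, and the MIWI +/- arrays lay below those of both genotypes with a knock-in allele. Whether the probes lie in the altered part of the null allele is not stated, and the remaining signal in MIWI -/- therefore checks nothing. Array medians lay between 66.6 and 71.8. Arrays of 1 genotype correlated across clusters with r from 0.97 to 0.9951. The MIWI -/KI arrays had 0.97 between them, whereas MIWI -/KI replicate 1 reached 0.9885 and 0.9872 with the MIWI -/- arrays. MIWI -/KI replicate 2 reached 0.9812 with MIWI -/- replicate 1. The MIWI -/- arrays had 0.9836 between them, whereas replicate 2 reached 0.9855 and 0.9858 with the MIWI +/KI arrays. That array without a wild-type allele thus lay nearer to arrays with one than to its fellow replicate. Each MIWI +/KI and MIWI +/- array was closest to the other array of its genotype (0.9951 and 0.9892).

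**Figure D1:**
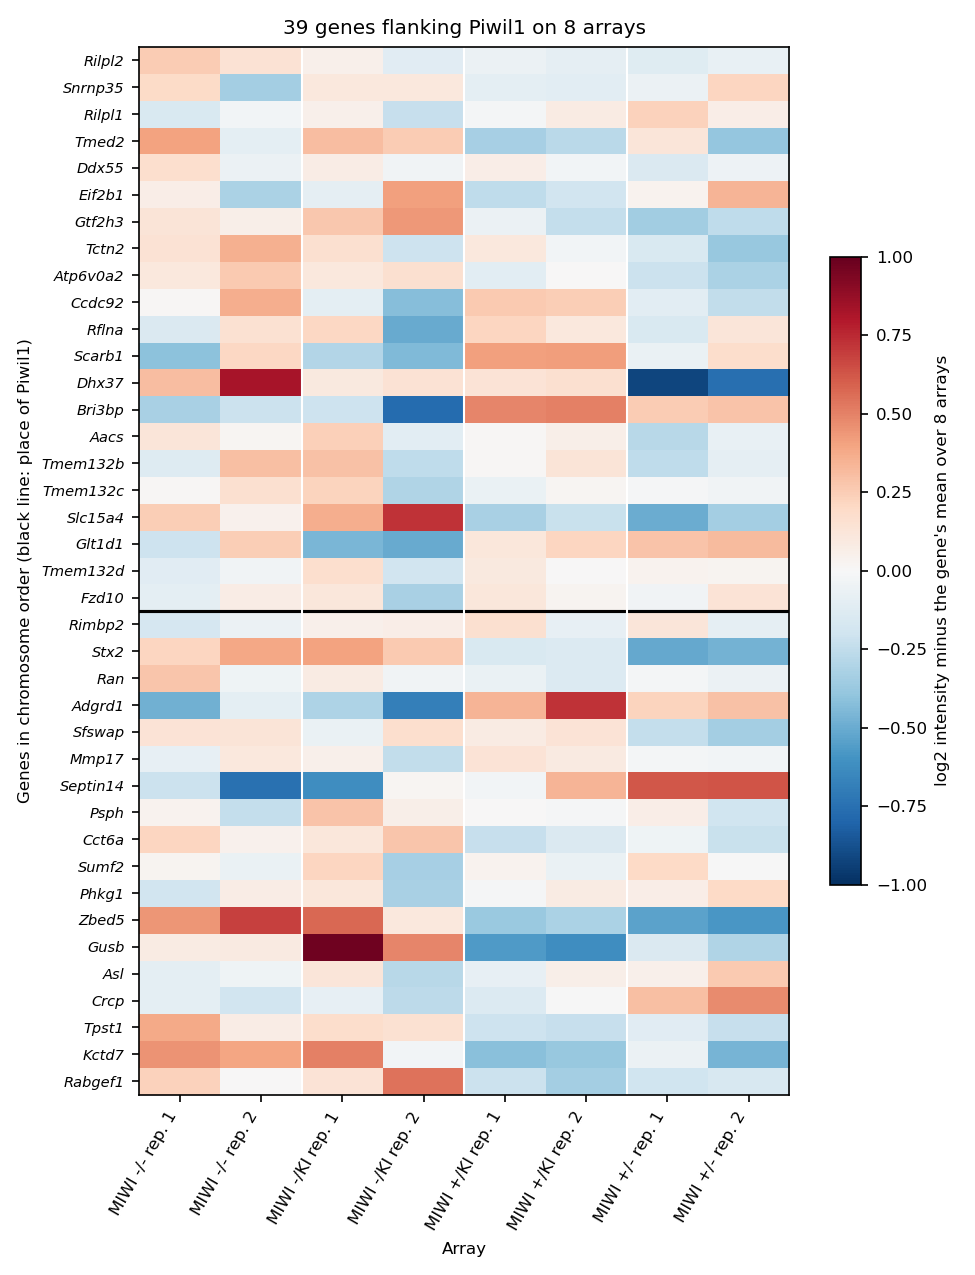
Log2 intensity of each of the 39 genes on each of the 8 arrays, as the difference from that gene's mean over the 8 arrays (colour, log2 scale). Genes run down the page in chromosome order, with a black line at the place of Piwil1, and genotypes run from MIWI -/- on the left to MIWI +/- on the right. Some adjacent rows run in opposite directions: Dhx37 is deep blue in both MIWI +/- arrays while its neighbour Bri3bp is blue on the left and red on the right.

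The first question was whether genes around Piwil1 differed between spermatids without and with a wild-type allele. The 4 arrays of MIWI -/- and MIWI -/KI were set against the 4 arrays of MIWI +/KI and MIWI +/-, as the mean of the MIWI -/- minus MIWI +/- and the MIWI -/KI minus MIWI +/KI differences. Of the 39 genes 9 passed (23.1%), 6 higher and 3 lower without a wild-type allele. Over all 19938 genes 4.33% were called higher and 3.93% lower. Zbed5, Gusb, Slc15a4, Dhx37, Kctd7 and Stx2 rose, while Adgrd1, Septin14 and Bri3bp fell. Arrays did not overlap for 12 members (30.8%), 10 above and 2 below, against 15.9% of all genes. The median difference was 0.07 over members and -0.01 over all genes (log2 scale), and the median absolute difference was 0.18 over members and 0.13 over all genes. A call here means an adjusted p under 0.05 from limma, with Benjamini-Hochberg adjustment over all 35512 clusters. Shares over all genes, here and below, were not matched for level, and 35 of the 39 members lay at or above the median cluster level. Among clusters at or above that level 13 members were called, against 17.6% of genes on other chromosomes. No such share was taken for arrays that did not overlap or for unadjusted p. Over the left-out arrays the 9 calls ranged from 1 to 10. Fewer members were called without MIWI -/- replicate 1, either MIWI +/KI replicate or either MIWI +/- replicate. The share called on other chromosomes also fell in each of these settings, and it rose without either MIWI -/KI replicate. It fell as well without MIWI -/- replicate 2, where the member count did not fall.

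By role, the 7 genes of membrane traffic and small GTPases had 1 rise, Stx2, and the 7 of RNA handling, transcription and translation had 1 rise, Dhx37. The 8 metabolic enzymes had 1 rise, Gusb, and the 4 genes of cilium and cytoskeleton had 1 fall, Septin14. Of 10 transporters, receptors and surface proteins, Slc15a4 rose and Bri3bp and Adgrd1 fell. The 3 remaining genes included Zbed5 and Kctd7, which rose, and Cct6a, a subunit of the chaperonin TRiC, which was not called (0.32, adjusted p = 0.112). No role held more than 3 of the 9 calls.

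Zbed5, which encodes a BED zinc finger protein derived from a DNA transposase, lies 15 measured genes after Piwil1. Its intensity was 223 and 265 in MIWI -/-, 245 and 177 in MIWI -/KI, 127 and 132 in MIWI +/KI and 113 and 110 in MIWI +/-. All 4 arrays without a wild-type allele lay above all 4 arrays with one. The mean difference was 0.90 (SE 0.14, 95% interval 0.59 to 1.22, 1.87-fold, adjusted p = 0.00691). It was 1.12 in MIWI -/- against MIWI +/- (2.18-fold, adjusted p = 0.0162), 0.90 in MIWI -/KI against MIWI +/- (adjusted p = 0.0383) and 0.69 in MIWI -/KI against MIWI +/KI (adjusted p = 0.129). The mean difference was called in each of the 16 alternatives run (highest adjusted p = 0.0494). The MIWI -/- call was lost without MIWI -/- replicate 2 or any array of MIWI +/KI or MIWI +/- (adjusted p from 0.0516 to 0.136). The MIWI -/KI call was lost without any array of the other genotypes (0.0509 to 0.232).

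Stx2 encodes syntaxin 2, a SNARE protein of membrane fusion whose loss in mouse mutants arrests spermatogenesis, and it is the second measured gene after Piwil1. Its intensity was 926 and 1042 in MIWI -/-, 1054 and 957 in MIWI -/KI, 719 and 726 in MIWI +/KI and 559 and 574 in MIWI +/-. The arrays fell into 3 levels: both genotypes without a wild-type allele together at the top, MIWI +/KI below them and MIWI +/- lowest. The mean difference without against with a wild-type allele was 0.63 (SE 0.09, adjusted p = 0.00635). Stx2 was 1.73-fold higher in MIWI -/- than in MIWI +/- (0.79, SE 0.13, adjusted p = 0.0146) and 1.77-fold higher in MIWI -/KI than in MIWI +/- (0.83, adjusted p = 0.012). The step between MIWI -/KI and MIWI +/KI was 0.48 (adjusted p = 0.128), and that between MIWI +/KI and MIWI +/- was 0.35 (95% interval 0.04 to 0.66, adjusted p = 0.365). Neither step passed. The mean difference missed the threshold without MIWI +/KI replicate 1 or 2 (adjusted p from 0.0531 to 0.0574). The MIWI -/- call was lost without MIWI -/- replicate 2 or any array of MIWI +/KI or MIWI +/- (0.059 to 0.131), and the MIWI -/KI call without MIWI +/KI replicate 2 or either MIWI +/- replicate (0.0502 to 0.12).

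Gusb encodes beta-glucuronidase, a lysosomal enzyme that removes glucuronic acid from glycosaminoglycans, and lies 18 measured genes after Piwil1. Its intensity was 105 and 105 in MIWI -/-, 195 and 139 in MIWI -/KI, 66.8 and 64.3 in MIWI +/KI and 89.7 and 80.3 in MIWI +/-. MIWI -/KI was highest and MIWI +/KI lowest, with no overlap between any 2 genotypes. Gusb was the 1 member called in MIWI -/KI against MIWI +/KI, at 1.33 (SE 0.19, 95% interval 0.89 to 1.76, 2.51-fold, adjusted p = 0.0166). It also passed in MIWI -/KI against MIWI +/- (0.95, adjusted p = 0.0279) and as a mean over both backgrounds (0.82, adjusted p = 0.0097), but not in MIWI -/- against MIWI +/- (0.31, adjusted p = 0.546). The difference between the 2 null for wild-type differences was -1.02 and did not pass (unadjusted p = 0.00508, adjusted p = 0.192). Its calls were lost without either MIWI +/KI replicate (adjusted p up to 0.184 for the first comparison). The MIWI -/KI call against MIWI +/- was also lost without either MIWI +/- replicate (up to 0.211), and the mean difference without MIWI +/- replicate 2 (0.0583).

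Dhx37, a DEAH-box RNA helicase needed to assemble the small ribosomal subunit, lies 11 measured genes before Piwil1 and had the largest difference of any member in MIWI -/- against MIWI +/-. Its intensity was 363 and 517 in MIWI -/-, 313 and 323 in MIWI -/KI, 322 and 327 in MIWI +/KI and 155 and 173 in MIWI +/-. MIWI +/- alone stood low, and MIWI -/KI and MIWI +/KI overlapped. The gene was 2.64-fold higher in MIWI -/- than in MIWI +/- (1.40, SE 0.19, 95% interval 0.96 to 1.84, adjusted p = 0.0056) and 1.94-fold higher in MIWI -/KI than in MIWI +/- (0.96, adjusted p = 0.0301). MIWI +/KI lay 0.99 above MIWI +/-, which did not pass (adjusted p = 0.136), and MIWI -/KI differed from MIWI +/KI by -0.03 (95% interval -0.47 to 0.41). The mean difference was 0.69 (adjusted p = 0.0226), although the arrays without and with a wild-type allele overlapped. The 2 null for wild-type differences were 1.43 apart (unadjusted p = 0.000758), the largest gap of any member, and did not pass after adjustment (adjusted p = 0.115). The MIWI -/- call was lost without MIWI +/- replicate 1 (adjusted p = 0.0677). The MIWI -/KI call was lost without MIWI -/KI replicate 2 or any array of MIWI +/KI or MIWI +/- (0.0834 to 0.218), and the mean difference without any array of MIWI +/KI or MIWI +/- (0.0784 to 0.121).

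**Figure D2:**
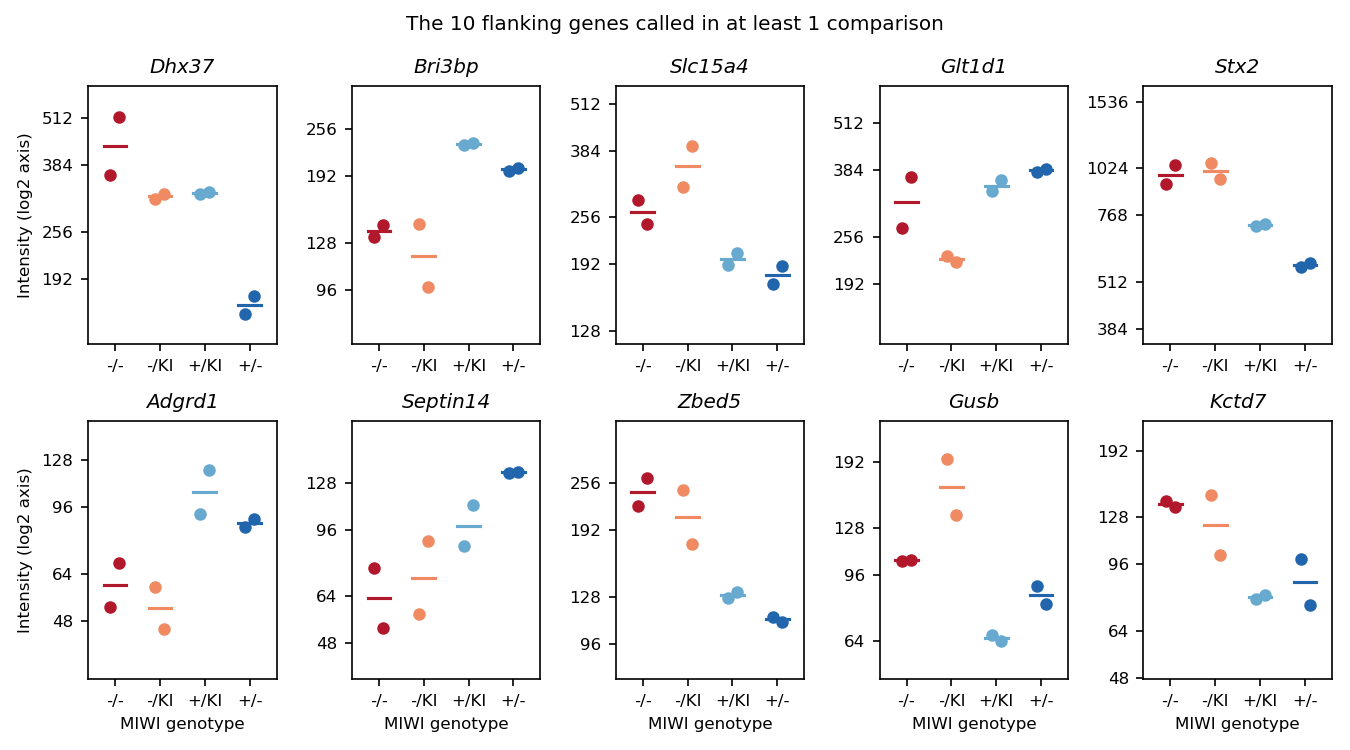
Intensity of the 10 genes called in at least 1 comparison, 1 panel each in chromosome order, on log2 axes that span the same ratio in every panel. Points are arrays, bars are means of the log2 values of the 2 arrays of a genotype, and genotypes run from MIWI -/- to MIWI +/-. Zbed5 steps down between MIWI -/KI and MIWI +/KI, with the lowest array on the left at 177 and the highest on the right at 132, whereas in Dhx37 MIWI +/- alone stands low, at 155 and 173.

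Slc15a4 and Kctd7 were the other members that rose. Slc15a4, a lysosomal transporter of histidine and small peptides, had an intensity of 284 and 246 in MIWI -/-, 308 and 395 in MIWI -/KI, 191 and 205 in MIWI +/KI and 170 and 189 in MIWI +/-. Its arrays did not overlap, with a mean difference of 0.69 (SE 0.13, adjusted p = 0.0168). It was higher in MIWI -/KI than in MIWI +/- by 0.96 (adjusted p = 0.0223). The differences were 0.56 in MIWI -/- against MIWI +/- (adjusted p = 0.153) and 0.82 in MIWI -/KI against MIWI +/KI (adjusted p = 0.0714). Kctd7, an adaptor of cullin-3 ubiquitin ligases, had 141 and 136 in MIWI -/-, 147 and 101 in MIWI -/KI, 77.5 and 79.5 in MIWI +/KI and 99.4 and 74.9 in MIWI +/-. Its lowest array without a wild-type allele was 101 and its highest with one was 99.4, so the groups were only just apart (mean difference 0.66, SE 0.15, adjusted p = 0.0439). The mean difference of Slc15a4 lost its call without MIWI -/- replicate 1 or any array of MIWI +/KI or MIWI +/- (0.0572 to 0.11), and its MIWI -/KI call without MIWI -/KI replicate 2 or any array of those same genotypes (0.0574 to 0.187). Kctd7 lost its call without any array of MIWI -/-, MIWI +/KI or MIWI +/- (0.0686 to 0.184).

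The 3 falling genes were Bri3bp, Adgrd1 and Septin14. Bri3bp, which encodes the membrane protein BRI3-binding protein, stands next to Dhx37 in gene order. Its intensity was 132 and 143 in MIWI -/-, 144 and 97.3 in MIWI -/KI, 233 and 235 in MIWI +/KI and 198 and 202 in MIWI +/-, a clean separation in the direction opposite to Dhx37. It fell by 0.76 (SE 0.14, adjusted p = 0.0172), with -0.54 in MIWI -/- against MIWI +/- (adjusted p = 0.224) and -0.98 in MIWI -/KI against MIWI +/KI (adjusted p = 0.0569). Adgrd1, an adhesion G protein-coupled receptor, had 52.3 and 68.3 in MIWI -/-, 58.9 and 45.5 in MIWI -/KI, 92.4 and 120 in MIWI +/KI and 85.1 and 89.5 in MIWI +/-. It also separated fully, and fell by 0.79 (SE 0.15, adjusted p = 0.0196), with -0.55 and -1.03 in the same pair of comparisons (adjusted p = 0.251 and 0.0592). Septin14 belongs to the septins, GTP-binding proteins that form filaments. Its intensity was 76 and 52.7 in MIWI -/-, 57.4 and 89.6 in MIWI -/KI, 87 and 112 in MIWI +/KI and 136 and 137 in MIWI +/-. Here MIWI -/KI replicate 2 overlapped MIWI +/KI, and the fall of 0.78 was close to the threshold (SE 0.19, adjusted p = 0.0482). Bri3bp lost its call without MIWI -/- replicate 1 or any array of MIWI +/KI or MIWI +/- (0.0616 to 0.0933). Adgrd1 lost it without MIWI -/- replicate 1, MIWI +/KI replicate 2 or either MIWI +/- replicate (0.0705 to 0.102). Septin14 kept it without MIWI -/KI replicate 2 and lost it without any other array (0.0511 to 0.199).

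**Figure D3:**
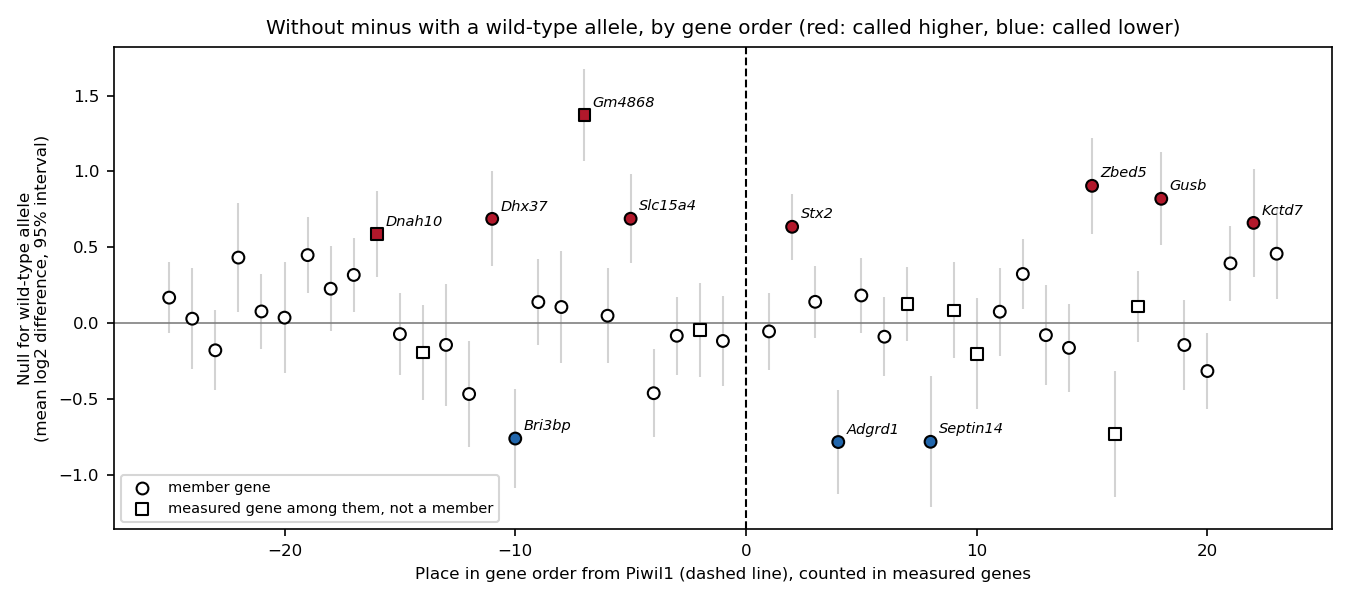
Mean log2 difference without minus with a wild-type allele (vertical axis, grey lines are 95% intervals) by place in gene order from Piwil1, counted in measured genes (horizontal axis). Circles are the 39 genes and squares the 9 measured genes among them that are not members. Red marks genes called higher and blue genes called lower. Called genes stand on both sides, from 16 places before Piwil1 (Dnah10) to 22 places after it (Kctd7), with uncalled genes between them.

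Called members did not all change in the same direction along the chromosome. Zbed5 (0.90) and Gusb (0.82), adjacent members of the list, both rose. Dhx37 (0.69) and Bri3bp (-0.76) are adjacent members and changed in opposite directions, and so did Stx2 (0.63) and Adgrd1 (-0.79), with Ran (0.14, adjusted p = 0.591) between them. Of 38 pairs of members next to each other in the list, 22 had the same sign (57.9%), against 53.9% of neighbouring pairs over all chromosomes. In MIWI -/- against MIWI +/- the shares were 52.6% and 52.1%. In MIWI +/KI against MIWI +/-, 25 of 38 pairs had the same sign (65.8%, against 52.8%). Member shares lay below those over all chromosomes for MIWI -/KI compared with MIWI +/- (47.4% and 53.3%) or MIWI -/- (55.3% and 57.1%). The averaged swap of knock-in for null allele also lay below (50% and 52.1%). For MIWI -/KI minus MIWI +/KI the shares were 57.9% and 56.8%. Before Piwil1, 3 of 21 members were called (14.3%, 2 higher), and after it 6 of 18 (33.3%, 4 higher); the difference between the sides was not tested.

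Neither of the members next to Piwil1 was called without against with a wild-type allele. Fzd10, a Wnt receptor and the nearest measured gene before it, had 73.4 and 82.3 in MIWI -/-, 84.6 and 62.6 in MIWI -/KI, 84.7 and 80 in MIWI +/KI and 76.4 and 86 in MIWI +/-. Rimbp2, a presynaptic scaffold protein gene and the nearest after it, had 60.8 and 65.5, 70.6 and 71.4, 76.3 and 64.6, and 74.3 and 64.1 in the same order of genotypes. The groups overlapped for both, and the mean differences were -0.12 (95% interval -0.42 to 0.18) for Fzd10 and -0.06 (-0.31 to 0.20) for Rimbp2. Ran, the GTPase of nuclear transport, had 1106 and 887 in MIWI -/-, 964 and 891 in MIWI -/KI, 871 and 831 in MIWI +/KI and 903 and 876 in MIWI +/- (0.14, 95% interval -0.10 to 0.38). Tmem132d (-0.08, adjusted p = 0.793) and Tmem132c (0.05, adjusted p = 0.917), which encode related single-pass membrane proteins, were not called, and neither was the splicing regulator gene Sfswap (0.18, adjusted p = 0.474). Of the 5 nearest members on each side, the calls in this comparison were those of Slc15a4, Stx2 and Adgrd1. Glt1d1, a glycosyltransferase-domain gene 4 places before Piwil1, missed the threshold at -0.46 (adjusted p = 0.0771).

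Glt1d1 was the 1 member called lower in MIWI -/KI against MIWI +/-. Its intensity was 271 and 369 in MIWI -/-, 227 and 220 in MIWI -/KI, 338 and 362 in MIWI +/KI and 380 and 388 in MIWI +/-. MIWI -/KI stood below every other array, while MIWI -/- replicate 2 overlapped MIWI +/KI. The fall was 0.78 (SE 0.18, 1.72-fold lower, adjusted p = 0.0494). It was lost without MIWI -/KI replicate 2 or any array of MIWI +/KI or MIWI +/- (0.119 to 0.272).

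Each pair of genotypes here differs by 1 allele. In MIWI -/- against MIWI +/-, where a null allele takes the place of the wild-type one beside a null allele, 3 members rose (7.69%: Dhx37, Zbed5 and Stx2) and none fell, while 14 of 39 (35.9%) had an unadjusted p under 0.05, against 18.7% of all genes. All genes had 2.6% called higher and 3.53% lower. In MIWI -/KI against MIWI +/KI, where the same swap takes place beside a knock-in allele, 1 member rose (2.56%, Gusb) and none fell, against 1.14% higher and 1.29% lower over all genes, and 15 (38.5%) had an unadjusted p under 0.05, against 17.9% of all genes. In MIWI -/KI against MIWI +/-, where a knock-in allele takes the place of the wild-type one beside a null allele, 5 rose and 1 fell (15.4%), against 3.11% higher and 3.12% lower. The rises were in Slc15a4, Dhx37, Gusb, Zbed5 and Stx2. Median differences over members were 0.15, -0.01 and 0.06 in these comparisons, and 0.01, -0.03 and -0.00 over all genes. Comparisons that share MIWI +/- or MIWI -/KI arrays are not independent of each other. The counts that follow lack the share over all genes in each setting and show only how far a count moves. Over the left-out arrays the counts ranged from 0 to 6, 0 to 6 and 0 to 11. The 3 calls of MIWI -/- against MIWI +/- became 1 without MIWI -/- replicate 2, either MIWI +/KI replicate or MIWI +/- replicate 2, 0 without MIWI +/- replicate 1, and 6 when either MIWI -/KI replicate was left out. For MIWI -/KI against MIWI +/KI the 1 call became 6 without MIWI -/KI replicate 1, 2 when MIWI -/- replicate 1 was left out and 0 when either MIWI +/KI replicate was. The 6 calls of MIWI -/KI against MIWI +/- became 11 without MIWI -/KI replicate 1, 3 without MIWI -/KI replicate 2, 1 without MIWI +/KI replicate 1, and 0 when MIWI +/KI replicate 2 or either MIWI +/- replicate was left out.

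The 2 comparisons that swap a null for a wild-type allele share no array, so their values can be set side by side. Over the 39 genes 27 had the same sign in both (69.2%), against 56.9% of all genes, with a Pearson r of 0.558 and a Spearman rho of 0.637 across members and of 0.487 and 0.235 across all genes. Genes are not independent replicates, and these are descriptions. Zbed5, Stx2, Slc15a4 and Kctd7 were higher in both, and Bri3bp, Adgrd1 and Septin14 lower in both. Dhx37 (1.40 and -0.03) and Gusb (0.31 and 1.33) were each high in 1 of them. Ccdc92, a coiled-coil protein gene of centrioles and cilia, had values of opposite sign: 0.37 when MIWI -/- was set against MIWI +/-, but -0.51 when MIWI -/KI was set against MIWI +/KI, 0.88 apart (unadjusted p = 0.00573, adjusted p = 0.198). No member passed the test of that gap between differences, and none of the 19938 genes did (0%), while 4 members (10.3%) and 13% of all genes had an unadjusted p under 0.05. The fourth, beside Dhx37, Gusb and Ccdc92, was Tctn2, a gene of the ciliary transition zone (0.58, unadjusted p = 0.0442). Scarb1, the receptor of high-density lipoprotein, was at -0.78 in MIWI -/KI against MIWI +/KI (adjusted p = 0.121) and at -0.16 in MIWI -/- against MIWI +/-.

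**Figure D4:**
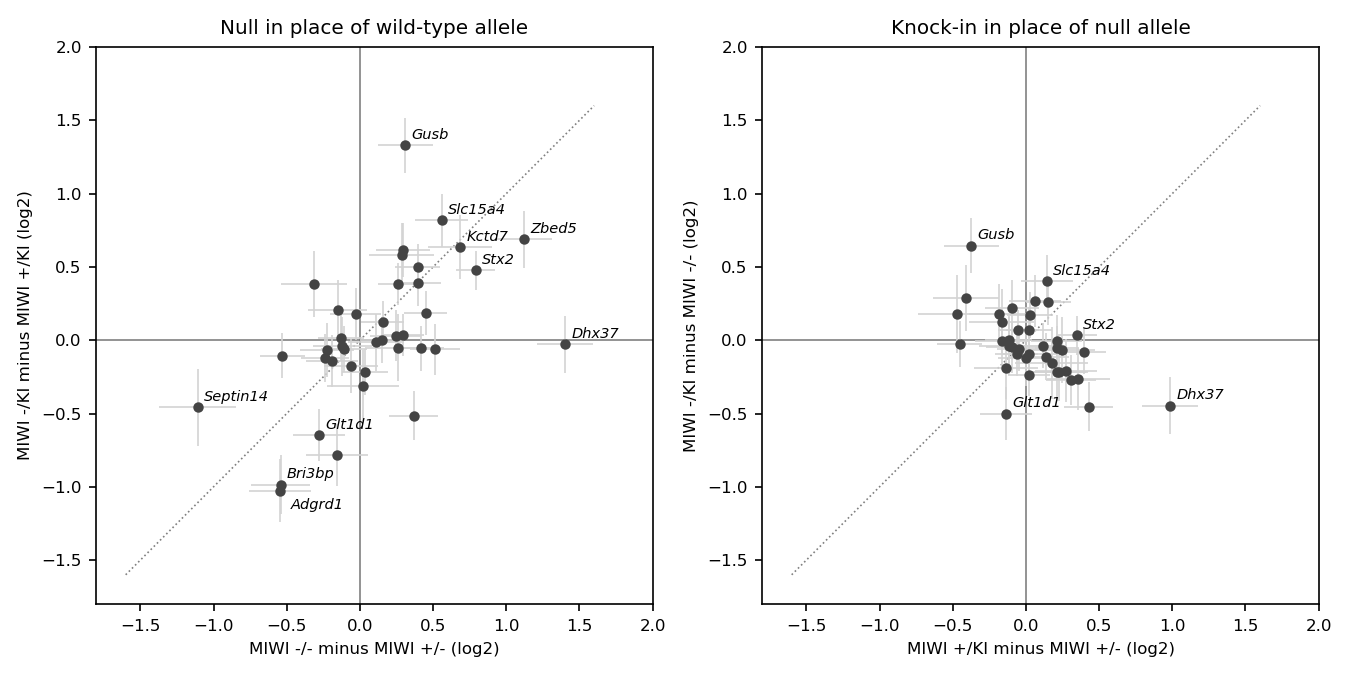
Log2 differences of the 39 genes under the same allele swap in comparisons that share no array, with 1 SE on each axis and a dotted line of equal values. Left, null in place of wild-type allele: MIWI -/- minus MIWI +/- on the horizontal axis and MIWI -/KI minus MIWI +/KI on the vertical axis, with 27 of 39 genes of the same sign. Right, knock-in in place of null allele: MIWI +/KI minus MIWI +/- on the horizontal axis and MIWI -/KI minus MIWI -/- on the vertical axis, with 15 of 39.

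A swap of the knock-in for the null allele, which leaves the number of wild-type alleles the same, gave no called member. In MIWI +/KI against MIWI +/- none of 39 passed by limma, 5 had an unadjusted p under 0.05 (12.8%, against 11.7% of all genes), and 0.0953% of all genes passed. The largest values were in Dhx37 (0.99, adjusted p = 0.136), Septin14 (-0.47, adjusted p = 0.579) and Crcp (-0.45, adjusted p = 0.313), a subunit gene of RNA polymerase III. Crcp had 296 and 279 in MIWI -/-, 300 and 265 in MIWI -/KI, 289 and 318 in MIWI +/KI and 391 and 441 in MIWI +/-, with MIWI +/- alone standing high. None passed by limma in MIWI -/KI against MIWI -/- either, among members or all genes (0%), and 4 members had an unadjusted p under 0.05 (10.3%, against 4.55%). They were Gusb (0.64), Glt1d1 (-0.50), Ccdc92 (-0.45) and Dhx37 (-0.45), each with an adjusted p of 0.998. Averaged over both, no member and no gene passed by limma (0%), and 1 member, Glt1d1, had an unadjusted p under 0.05 (2.56%, against 3.05%). Median differences over members were 0.02, -0.05 and 0.01 in these comparisons, and 0.02, -0.01 and 0.00 over all genes. The first 2 share no array: 15 of 39 members had the same sign in both (38.5%, against 36.1% of all genes), with a Pearson r of -0.527 across members and -0.47 across all genes. A p that misses the threshold does not show that these genotypes are alike, and the median SE of a member's difference between genotypes was 0.179.

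Distance from Piwil1 was read for all 1144 measured genes of chromosome 5, in bands of gene order on either side. Without against with a wild-type allele, 11 of 50 genes within 25 places were called (22%, 8 higher and 3 lower). The share was 12% at 26 to 50 places (6 of 50), 7% at 51 to 100 (7 of 100) and 6.89% farther along the chromosome (65 of 943), against 8.29% on all other chromosomes (1556 of 18775). The nearest band held the highest share in this comparison, in MIWI -/- against MIWI +/- (10%, against 6.13% on other chromosomes) and in MIWI -/KI against MIWI +/- (16%, against 6.28%). The 3 nearest bands each stood at 4% in MIWI -/KI against MIWI +/KI, against 2.47% on other chromosomes. In MIWI +/KI against MIWI +/- no gene of chromosome 5 in these bands was called, against 0.101% on other chromosomes. The bands include the members and are a description with no test. Over the left-out arrays the share of the nearest band ranged from 4% (2 genes) to 26% (13 genes). It was lowest without MIWI +/KI replicate 2, at 4% against 3.63% on other chromosomes. The nearest band then stood below the band of 26 to 50 places, which had 6%, as it did without MIWI +/- replicate 2 (6% in the nearest band, against 8%). Among clusters at or above the median level, which hold 35 of the 39 members, the shares were 36.4% in the nearest band (16 of 44), 18.6% at 26 to 50 places and 17.6% on other chromosomes.

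**Figure D5:**
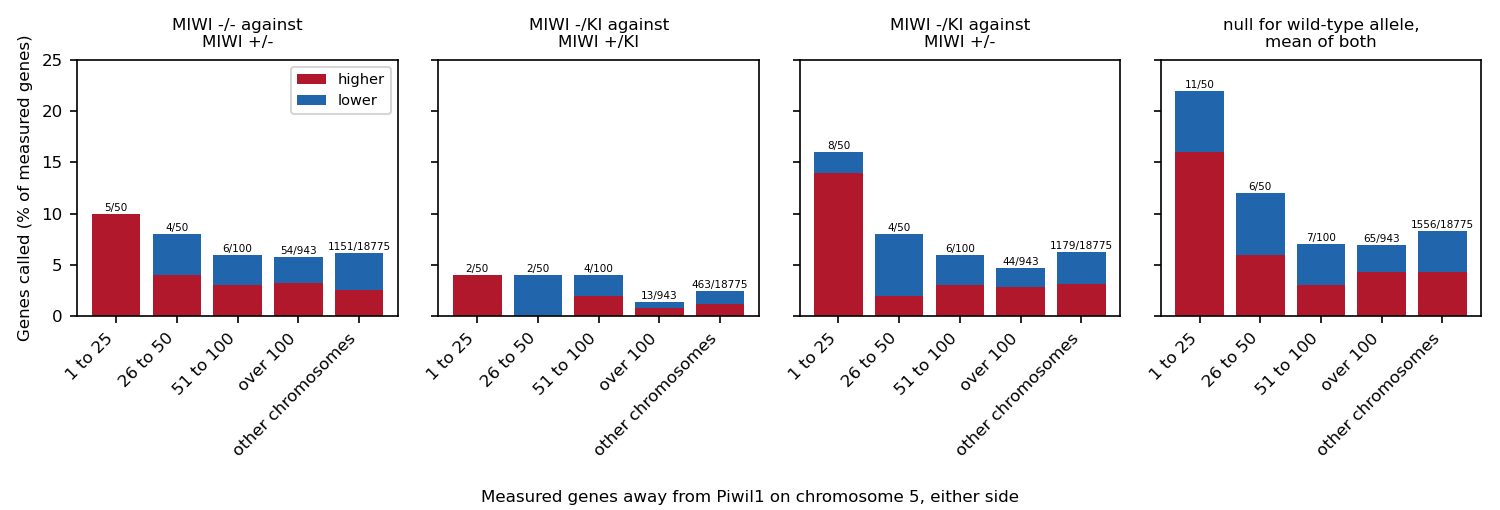
Share of measured genes called (vertical axis, percent) by distance from Piwil1 on chromosome 5 in measured genes on either side, with all other chromosomes on the right of each panel. Red is the share called higher and blue the share called lower, and each bar is labelled with called over measured genes. Without against with a wild-type allele the share is 22% within 25 genes and 8.29% on other chromosomes.

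Of the 29 members called in no comparison, several lay close to the threshold. Gtf2h3, a subunit gene of the transcription factor TFIIH, had 179 and 170 in MIWI -/-, 197 and 221 in MIWI -/KI, 157 and 139 in MIWI +/KI and 129 and 137 in MIWI +/-. Its arrays without and with a wild-type allele did not overlap (0.45, adjusted p = 0.0528). Tpst1, a tyrosylprotein sulfotransferase gene (0.39, adjusted p = 0.0803), and Rabgef1, which encodes an exchange factor of RAB5 (0.46, adjusted p = 0.0904), lie 21 and 23 places after Piwil1, on both sides of Kctd7. Among the enzymes, Psph (0.07), Sumf2 (-0.08), Asl (-0.15), Aacs (0.14) and Phkg1 (-0.16) lay between -0.16 and 0.14 on the log2 scale. The largest adjusted p of these was 0.854 and the smallest 0.601. Phkg1, a catalytic subunit gene of phosphorylase kinase, had the lowest mean of the members, with intensities of 22.6 to 32.5. Ccdc92 had the highest, with 1006 to 1743, though levels of different probes are not comparable.

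Of the 3 members with more than 1 cluster, Tmed2, a cargo protein gene of the early secretory pathway, was read on a cluster whose identifier lies outside the run of the other members. Its mean difference was 0.43 on that cluster, 0.42 on a cluster within the run and 0.54 on another outside it. None of them was called (adjusted p = 0.182, 0.194 and 0.137 by limma). For Atp6v0a2, a subunit gene of the vacuolar proton pump, the clusters disagreed in sign (0.32 and -0.12), with no call. The clusters of Tmem132b were all at or below 0.20.

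Some cell type markers differed between genotypes, while most of the marker lists held no call or only 1. In bulk RNA, fewer cells of a type and less RNA per cell cannot be told apart. The summed intensity of 10 round spermatid markers ranged from 13474 to 14280 in MIWI -/-, from 13790 to 15671 in MIWI -/KI, from 15653 to 16774 in MIWI +/KI and from 18194 to 20039 in MIWI +/-, and 2 of the 10 fell without a wild-type allele. Those were Tnp1 and Prm1, which encode a transition protein and a protamine that replace histones in later spermatids. Together they summed to 617 to 1079 in MIWI -/-, 1129 to 1537 in MIWI -/KI, 3527 to 3889 in MIWI +/KI and 6141 to 8005 in MIWI +/-. The other 8 spermatid markers were slightly higher in MIWI -/-, at 12857 to 13201, than in MIWI +/-, at 12034 to 12053, with 12660 to 14134 in MIWI -/KI and 12126 to 12885 in MIWI +/KI, and 1 of them was called higher in MIWI -/- against MIWI +/-. Of 9 measured spermatocyte markers none was called, with sums of 4466 to 5838 in MIWI -/-, 4475 to 6477 in MIWI -/KI, 4091 to 4323 in MIWI +/KI and 4124 to 4585 in MIWI +/-. Of 8 measured Sertoli cell markers 3 fell, with sums of 990 to 1258 in MIWI -/-, 965 to 1192 in MIWI -/KI, 1431 to 1734 in MIWI +/KI and 1780 to 1894 in MIWI +/-. None of the 4 measured Leydig cell markers was called, although their sum was 529 to 561 in MIWI -/KI against 253 to 329 in MIWI +/KI, and 323 to 637 in MIWI -/- against 286 to 373 in MIWI +/-. The 7 spermatogonia markers gave no call, with sums of 935 to 977 in MIWI -/-, 942 to 1079 in MIWI -/KI, 1023 to 1047 in MIWI +/KI and 971 to 994 in MIWI +/-. Of 6 peritubular and stromal markers 1 rose, with sums of 1175 to 1509 in MIWI -/-, 1461 to 1468 in MIWI -/KI, 1158 to 1434 in MIWI +/KI and 1215 to 1601 in MIWI +/-. Of 6 measured blood and macrophage markers 1 fell, with sums of 449 to 497, 496 to 553, 413 to 476 and 466 to 504 in the same order of genotypes. No marker was listed at 0. The spermatid marker Acrv1 lay between 2908 and 3957 on every array. The part of these markers in the members' differences was not tested.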

How the data were processed

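Per the submitters' processing notes, the authors summarised the arrays with RMA; its version and the array's genome build are not stated there. The deposited values are linear intensities per transcript cluster, and log2 of each deposited intensity was taken for every test. The 8 cells out of scale were treated as missing, none of them in a member's cluster. Clusters were named through the platform annotation, and gene order came from RefSeq on GRCm38.p6, on which 21698 of 21789 single-symbol clusters were placed by Entrez ID. All comparisons came from 1 model in limma 3.58.1 (R 4.3.3), 1 mean per genotype over 8 arrays, with an intensity trend, two-sided and adjusted over 35512 clusters (threshold 0.05); SE and 95% intervals are moderated. The fit was tested on simulated data.

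The members, roles and marker lists were chosen with earlier results of these data known. The rule for named genes took every called member, the 5 nearest on each side, the 3 largest differences between genotypes, the highest and lowest means, and Piwil1. Members near the threshold, with opposite signs, with several clusters or given for a role (Gtf2h3, Tpst1, Rabgef1, Cct6a, Tctn2, Scarb1, Tmed2 and others) were named after their values were seen. Alternatives were another quantile step, a filter on dim clusters, the mean of a gene's clusters, the out-of-scale cells, no trend, array weights, only the genotypes compared, a replicate block and each array left out.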

Additional observations from a re-analysis of the deposited data

How the results depend on the processing

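With 2 arrays per genotype, most calls sat near the threshold. Of 19 called values 1, the mean difference of Zbed5, was called in every alternative run, and 0 of the 19 changed sign in any. Of 53 named values that were not called, 9 were called in some alternative. Signal over background was not analysed here, so dim genes have no detection limit.

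In MIWI -/- against MIWI +/- the count of 3 called members ranged from 0 to 6 over the left-out arrays. The count of 1 in MIWI -/KI against MIWI +/KI ranged from 0 to 6, and was 3 with another quantile step, 4 among clusters at or above the median level, 2 with no trend and 0 with only those genotypes in the fit. The count of 6 in MIWI -/KI against MIWI +/- ranged from 0 to 11, and was 10 with that filter, 1 with array weights and 0 with only those genotypes. In MIWI +/KI against MIWI +/- the count of 0 was 5 with array weights, 2 with only those genotypes and 0 without any 1 array. Without against with a wild-type allele, the count of 9 ranged from 1 to 10 over the left-out arrays and was 13 with the filter. It was 0 throughout in MIWI -/KI against MIWI -/- and for the knock-in for the null allele averaged over both. For the difference between the null for wild-type differences, 0 became 1 with the filter and ranged from 0 to 1 over the left-out arrays. The filter adjusts over fewer clusters, a fit of 2 genotypes has fewer arrays, and the cause was not tested for the others. The counts above are given without the share over all genes in each setting, and they show only how far a count moves. The filter also leaves only 35 members. With it, 17.6% of genes on other chromosomes were called without against with a wild-type allele, against 8.29% in the main fit.

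Calls lost outside the left-out arrays were those of Gusb in MIWI -/KI against MIWI +/KI with only those genotypes fitted (adjusted p = 0.0969), of Dhx37 (0.0535) and Septin14 (0.0518) without against with a wild-type allele after another quantile step, and of Septin14 with array weights (0.054). In MIWI -/KI against MIWI +/-, 1 or more of these settings ended each of the 6 calls, with adjusted p up to 0.157.

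The replicate numbers are shared by the genotypes, but nothing in the labels pairs arrays by number, and deviations of same-numbered arrays correlated between -0.258 and 0.297. With a replicate block 3 members were called in MIWI -/- against MIWI +/-, 1 in MIWI -/KI against MIWI +/KI, 4 in MIWI -/KI against MIWI +/- and 8 for the null in place of the wild-type allele over both backgrounds. For the last of these, 7.72% of genes on other chromosomes were called with the block. The other counts are given without a share over all genes. The block ended the calls of Glt1d1 (adjusted p = 0.0553) and Zbed5 (0.0583) in MIWI -/KI against MIWI +/- and of Septin14 in the mean difference (0.0677).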

Other observations

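Among the 9 measured genes that stand between members without being listed, Gm4868, 7 places before Piwil1, had the largest difference of the stretch. It is an uncharacterised locus, named after its values were seen. Its intensity was 1120 and 775 in MIWI -/-, 1035 and 992 in MIWI -/KI, 353 and 360 in MIWI +/KI and 382 and 408 in MIWI +/-. The arrays without a wild-type allele lay far above those with one, with a mean difference of 1.37 (SE 0.13, adjusted p = 0.000771, limma), and the gene passed in MIWI -/- against MIWI +/- (1.24, adjusted p = 0.00871) and in MIWI -/KI against MIWI +/KI (1.51, adjusted p = 0.00971).

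Dnah10, a heavy chain gene of axonemal dynein 16 places before Piwil1, followed another order. Its intensity was 779 and 1039 in MIWI -/-, 749 and 818 in MIWI -/KI, 721 and 802 in MIWI +/KI and 431 and 392 in MIWI +/-, with MIWI +/- alone standing low, as in Dhx37. It was higher than in MIWI +/- by 1.13 in MIWI -/- (adjusted p = 0.00958) and by 0.93 in MIWI -/KI (adjusted p = 0.0218), while MIWI +/KI lay 0.89 above MIWI +/- without passing (adjusted p = 0.136). Nupr1l, 16 places after Piwil1, was at -0.73 without against with a wild-type allele (adjusted p = 0.0539).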
